A study of Mus musculus with 8 samples.

Results

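The 32 genes described here are p53, the regulators that act on it and the genes it switches on: inhibitors of the cell cycle, inducers of cell death and autophagy, DNA repair factors and redox enzymes. They were taken from a named list. Of the 32, 30 had a microarray probe set annotated with a single gene symbol, out of 18193 genes with such a probe set, and each gene was read from its brightest probe set over the 8 arrays. Tests were restricted to genes with a probe set at 50 or above on 2 or more arrays, read from the brightest of these, which kept 23 of the 30 and 8886 of the 18193. Trp53, the gene of p53 itself, and Fdxr, a mitochondrial ferredoxin reductase, had no such probe set and were not analysed here.

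The study sorted 2 kinds of myeloid progenitor from mouse bone marrow: granulocyte-monocyte progenitors (GMP) and the common myeloid progenitors (CMP) from which they descend. G4/G5 TERTER/ER mice carry the modified telomerase allele on both chromosomes and are labelled as having telomere dysfunction, while G0 TERTER/+ mice carry it on one chromosome beside a wild-type allele and are labelled normal. All mice were male of a strain given as mainly C576BL/6. The 4 groups were G4/G5 GMP, G0 GMP, G4/G5 CMP and G0 CMP, each measured on 2 arrays, and each array held cells from a pool of 4 mice matched for age and sex. The allele fuses telomerase reverse transcriptase to an estrogen receptor domain, so G0 mice are heterozygous and not free of the modification. The sample titles write G4 where the genotype label writes G4/G5, so a single pool may hold either generation or both. A sample held between 5000 and 20000 cells, and between 5 and 10 ng of RNA was labelled.

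The protein p53 is a transcription factor that is kept scarce by the ubiquitin ligase Mdm2 and is stabilised when kinases such as ATM and ATR sense broken DNA. Telomeres too short to be capped are read by the cell as broken ends, and in blood-forming tissue the response to them includes cell cycle arrest, apoptosis and DNA repair. Among its targets is Mdm2 itself, which closes a negative feedback loop.

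The sequences below are from promoters of genes whose G4/G5 pools lay above the G0 pools in both cell types, or below them in GMP. They are shown because p53 binds DNA as pairs of a 10-base element, called here the p53 decamer, whose pattern reads the same on both strands. RefSeq promoter windows (build GRCm38.p6, 250 bases before to 50 bases after an annotated start) were searched for the decamer with no mismatch. It was present in 11 of the 25 listed genes with a window (44%), against 9.55% of the 27025 genes with a window. The genes were listed as p53 targets, so this share describes the list and is no test of it. A pair of decamers with at most 13 bases between them was found in 24 of 32851 windows (0.0731%), of which 1 belonged to a listed gene. This was a start of Cdkn1a, the gene of the cell cycle inhibitor p21, where the decamers begin 73 and 51 bases before the start and leave 12 bases between them. The 10 bases directly after the second decamer miss the pattern at 1 base, so the search left them unmarked. Which of these stretches p53 binds was not tested. Capitals mark the decamers, all lines run 5′ to 3′ on the strand of the gene, and a match of letters is a description and not a measured binding site.
Cdkn1a, chr17:29090729-29091028, plus strand: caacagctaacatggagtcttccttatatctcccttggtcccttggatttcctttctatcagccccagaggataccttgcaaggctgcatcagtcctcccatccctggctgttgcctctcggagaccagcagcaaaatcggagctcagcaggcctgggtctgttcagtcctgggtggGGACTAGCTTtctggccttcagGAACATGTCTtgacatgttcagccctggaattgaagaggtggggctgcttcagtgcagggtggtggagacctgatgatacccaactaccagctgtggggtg
For the next 3 genes the G4/G5 pools lay above the G0 pools in GMP and in CMP alike, and each is shown as a stretch around its decamer.
Ccng1, chr11:40755442-40755491, minus strand: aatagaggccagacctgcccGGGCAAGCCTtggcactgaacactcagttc
Ei24, chr9:36797315-36797364, minus strand: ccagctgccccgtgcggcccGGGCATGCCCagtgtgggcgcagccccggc
Polk, chr13:96519389-96519437, minus strand: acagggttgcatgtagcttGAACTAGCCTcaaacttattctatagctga
The last 4 genes read lower in both G4/G5 GMP pools than in both G0 GMP pools.
Aen, chr7:78895917-78895966, plus strand: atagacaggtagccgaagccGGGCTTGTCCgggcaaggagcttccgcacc
Mdm2, chr10:117710915-117710964, minus strand: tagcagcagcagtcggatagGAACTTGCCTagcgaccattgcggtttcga
Ppm1d, chr11:85311102-85311151, plus strand: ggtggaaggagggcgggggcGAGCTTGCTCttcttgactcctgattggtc
Sesn1, chr10:41887246-41887295, plus strand: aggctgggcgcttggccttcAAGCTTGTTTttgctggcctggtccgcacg
Of the 10 genes that read higher in both cell types, 6 had a window and 4 of these held a decamer, and of the 4 genes that read lower in GMP, 4 had a window and 4 held one. Genes with a decamer were thus found in both sets. Gadd45a, Gtse1 and Trp53 were the other listed genes with a decamer. Zmat3, Trp53inp1, Ddb2, Tnfrsf10b, Perp, Xpc and Rrm2b had no window in the table.

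The array values are microarray signals scaled by the authors to a mean of 100, and the arrays had medians between 14.3 and 18.5. The labelled cell types were checked against their markers. In G0, 8 of 11 tested GMP markers rose in GMP relative to CMP and 6 of 10 tested markers of CMP and the megakaryocyte-erythroid side fell, and in G4/G5 the counts were 3 and 9 (limma, adjusted p under 0.05). Gata1, the master regulator of the erythroid side, read 32.8 and 33.4 in G4/G5 GMP against 419.8 and 206 in G4/G5 CMP. One library stood apart for neutrophil transcripts. The summed signal of 19 markers of maturing neutrophils was 74950 in G4/G5 CMP pool 1 and 2079 in G4/G5 CMP pool 2, against 1662 and 2116 in the G0 CMP pools. In GMP the same sum was 41034 and 44986 in the G4/G5 pools, against 5028 and 7574 in the G0 pools. All 19 markers were above 0 on the log2 difference in GMP (median 3.30) and in CMP (median 2.92), with 0 passing the test in either. An unadjusted p under 0.05 was reached by 13 of 19 in GMP (background 7.87%) and 5 of 19 in CMP (background 13.4%). Other markers differed in both pools of a group. All 11 GMP markers were above 0 in the genotype difference in CMP (median 1.41, 8 at an unadjusted p under 0.05, background 13.4%), with sums of 27574 and 24054 in the G4/G5 CMP pools against 7213 and 15104 in the G0 CMP pools, and all 11 were above 0 in GMP (median 0.21). The 3 tested markers of macrophages and dendritic cells were above 0 in both cell types, with medians of 0.58 in GMP and 1.19 in CMP. All 10 tested markers of CMP and the megakaryocyte-erythroid side were below 0 in GMP (median -0.58, 4 at an unadjusted p under 0.05, background 7.87%). None of the 32 genes is among these markers. The part of these transcripts in the differences below was not tested, and in bulk RNA fewer cells of a type and less RNA per cell cannot be told apart. Tested markers of B cells, T and NK cells and stroma numbered 1, 1 and 2, and their sums were at most 1678 on any array.

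In telomere-dysfunctional progenitors most of the listed p53 targets read higher than in G0 progenitors, by small margins, and none passed the test. Markers of GMP, neutrophils and macrophages also read higher in G4/G5, apart from the neutrophil sum of G4/G5 CMP pool 2, as given above. Of p53 targets outside the list, 2 of 5 of apoptosis and 10 of 20 others were above 0 in GMP. In CMP these counts were 4 of 5 and 14 of 20. In GMP, 21 of the 30 genes had a log2 difference above 0, against 50.7% of all 18193 genes, and in CMP it was 23 of 30, against 54.5%. Both G4/G5 pools lay above both G0 pools for 16 of 30 genes in GMP, against a background of 24.0%, and for 15 of 30 in CMP, against 20.2%. Both lay below for 4 of 30 in GMP, against 22.1%, and for 0 of 30 in CMP, against 14.7%. In both cell types at once the pools lay above for 10 of 30 genes, against 7.18%: Zmat3, Trp53inp1, Cdkn1a, Ccng1, Psrc1, Ei24, Dram1, Xpc, Ddb2 and Polk. Of the 23 tested genes the pools lay above for 16 in GMP (background 28.8%), 12 in CMP (background 21.7%) and 10 in both (background 10.3%), and below for 4 in GMP (background 26.5%) and 0 in CMP (background 14.9%). Of those 23, 18 were above 0 in GMP (background 50.9%) and 18 in CMP (background 55.6%). The genes were chosen with results of these data known, so these shares describe the list and are no test of it.

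The test itself gave no calls. Among the 23 tested genes, 0 passed an adjusted p of 0.05 in GMP (background 0.0%), in CMP (background 0.0113%), in the mean of both (background 0.0338%) or in the difference between both (background 0.0%; limma, Benjamini-Hochberg over 8886 genes). At an unadjusted p under 0.05, 6 of 23 were higher in G4/G5 GMP (background 4.6%), 8 of 23 in G4/G5 CMP (background 8.72%) and 11 of 23 in the mean (background 11.2%), and 0 were lower in GMP (background 3.26%), CMP (background 4.72%) or the mean (background 6.65%). These counts moved with single arrays. In CMP, 3 genes reached that level without G4/G5 CMP pool 1, the one with the neutrophil transcripts (10.2% of all genes in that fit, either way), and 2 with the 4 CMP arrays fitted alone (5.17%). In the mean, 6 did without G0 GMP pool 1 (8.38%). In GMP, 3 did without G0 GMP pool 1 (1.68%) or G4/G5 GMP pool 2 (2.98%), and 14 with the 4 GMP arrays fitted alone (23.3%). Zmat3 and Perp reached the signal minimum on G4/G5 arrays alone, so the counts over the 23 lean towards higher values. The median log2 difference over the 30 genes, with no minimum, was 0.23 in GMP and 0.17 in CMP, where the median over all 18193 genes was 0.00 and 0.03. Over the 23 tested genes it was 0.31 and 0.18. Taken pool by pool it was 0.29 and 0.31 in GMP, and 0.30 and 0.11 in CMP. Without G4/G5 CMP pool 1 the CMP median was 0.056, beside 0.07 over all genes tested, and 16 of 23 were above 0 (59.3% of all genes). The CMP difference turned below 0 there for Ercc5, Mdm2, Perp, Rrm2b and Tob1, and above 0 for Gtse1, Ppm1d and Sesn1. Since a replicate is a pool of animals, a p-value here measures spread among pools and not among single mice.

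**Figure D1:**
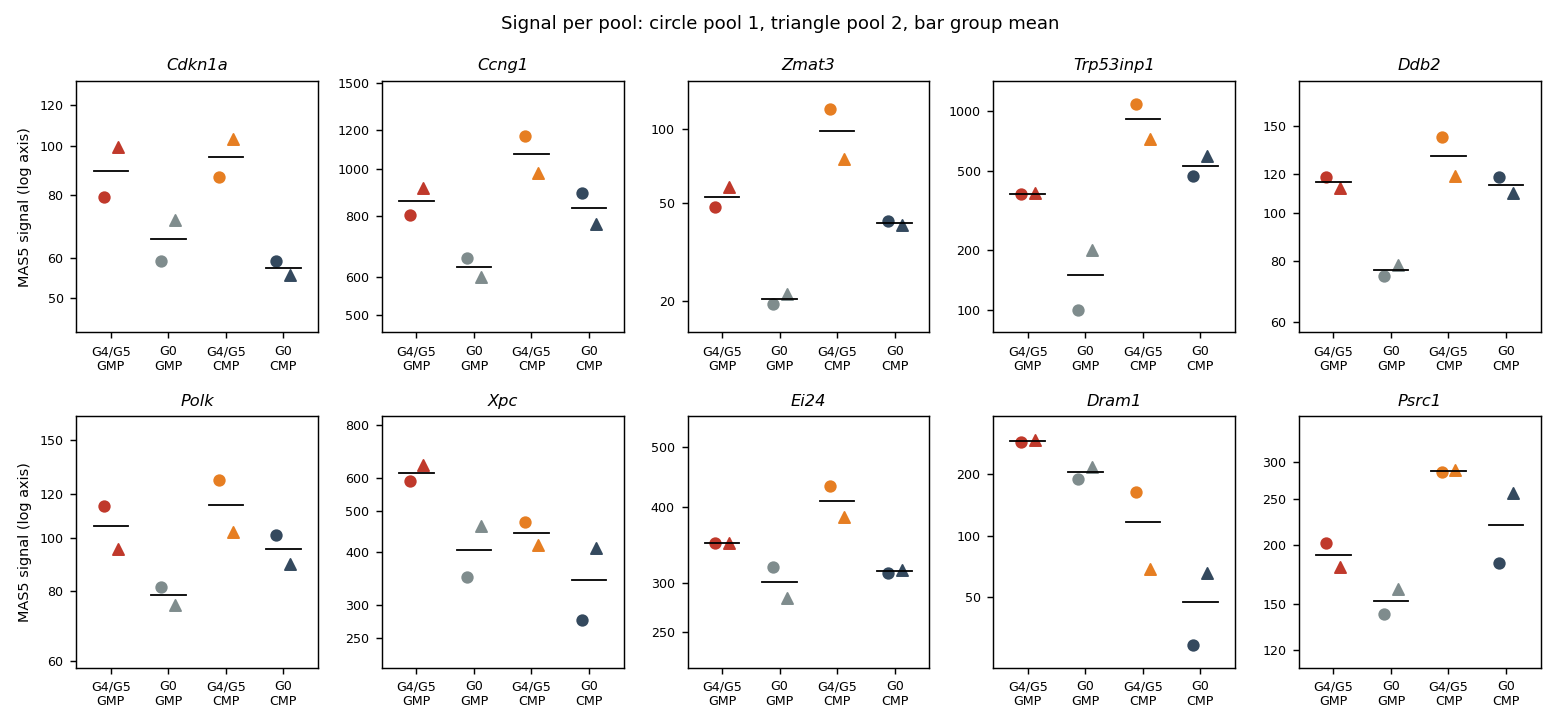
Signal on a log axis, each panel with its own range, of the 10 genes whose G4/G5 pools lay above the G0 pools in both cell types. Circles are pool 1, triangles pool 2 and bars the mean of the 2 pools, with G4/G5 left of G0 within each cell type. In each panel both points of G4/G5 lie above both points of G0, by a wide gap for Zmat3 and Trp53inp1 in GMP and by a narrow one for Polk and Ddb2 in CMP.

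Of the genes that act on p53 or modulate it, Trp53inp1 and Zmat3 differed most between the genotypes and the core feedback regulators differed little. Trp53inp1, a stress-induced nuclear protein that promotes p53 phosphorylation and autophagy, read 382 and 387 in G4/G5 GMP against 101 and 200.3 in G0 GMP, while its CMP signals were 1088 and 726 in G4/G5 against 471 and 594 in G0. The groups did not overlap in either cell type. Its log2 difference was 1.37 ± 0.30 (SE) in GMP, a fold of 2.59 on the scale of signal plus 10 (limma, adjusted p = 0.595), and 0.74 ± 0.30 in CMP (adjusted p = 0.355). The CMP value was 0.45 without G4/G5 CMP pool 1 and 1.03 without pool 2. With the 4 GMP arrays fitted alone, 3 of 23 genes passed in G4/G5 GMP, all higher, where 2.97% of all genes did: Trp53inp1 (limma, adjusted p = 0.0190), the repair gene Xpc (adjusted p = 0.0424) and Zmat3, which is set apart below because of the signal minimum. With the 4 CMP arrays fitted alone, 0 of 23 passed (background 0.0%, lowest adjusted p among the 23 = 0.839).

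Zmat3, a zinc finger protein that binds RNA, read 48.4 and 58.2 in G4/G5 GMP against 19.5 and 21.5 in G0 GMP, while its CMP signals were 120.5 and 75.8 in G4/G5 against 42.3 and 40.8 in G0. All 4 G4/G5 pools were above the G0 pools of their cell type, and the G0 pools were close to one another. It reached the signal minimum on 3 G4/G5 arrays and 0 G0 arrays, so it was tested only through the genotype in which it is high, and its p-values are no support for a difference. The log2 difference was 1.05 ± 0.27 in GMP (limma, adjusted p = 0.595) and 1.04 ± 0.27 in CMP (adjusted p = 0.251), and in the mean of both it was 1.04 ± 0.19 (adjusted p = 0.146). Adding 10 to a low signal understates such a fold. In CMP its value was 0.73 without G4/G5 CMP pool 1, the pool with the neutrophil transcripts, and 1.34 without pool 2.

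Mdm2, the ligase that marks p53 for degradation and is itself a target, read 155 and 144 in G4/G5 GMP against 196 and 163 in G0 GMP, while its CMP signals were 261 and 192 in G4/G5 against 229.6 and 189 in G0. Both G4/G5 GMP pools lay below the G0 pools, and the CMP pools overlapped. Its log2 difference was -0.25 ± 0.19 in GMP (limma, adjusted p = 0.737) and 0.10 ± 0.19 in CMP (adjusted p = 0.854), and the CMP value turned to -0.11 without G4/G5 CMP pool 1 and to -0.03 without G0 CMP pool 2. Mdm4, the relative of Mdm2 that blocks p53 on promoters, had log2 differences of 0.15 ± 0.16 in GMP and 0.11 ± 0.16 in CMP. Ppm1d, the Wip1 phosphatase that removes activating phosphates from p53 and its kinases, read 125 and 138 in G4/G5 GMP against 159 and 168 in G0 GMP, while its CMP signals were 174 and 198 in G4/G5 against 202 and 186 in G0. Like Mdm2 it was lower in both G4/G5 GMP pools, by 0.29 on the log2 scale (-0.29 ± 0.15, adjusted p = 0.638), and overlapped in CMP (-0.06 ± 0.15). Phlda3, a repressor of Akt signalling, ran between 16.6 and 82.2 and reached the minimum on 1 array, so it was not tested.

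Of the 7 tested cell cycle genes, 6 were above 0 in GMP and 5 in CMP, and 0 passed the test. Cdkn1a, which encodes p21, the inhibitor of cyclin-dependent kinases, has the paired decamers above near an annotated start, as a match of letters only. It read 79.0 and 99.4 in G4/G5 GMP against 59.2 and 71.4 in G0 GMP. Its CMP signals were 86.5 and 103 in G4/G5 against 59.2 and 55.5 in G0. The pools did not overlap in either cell type. Its log2 difference was 0.40 ± 0.21 in GMP (limma, adjusted p = 0.644) and 0.63 ± 0.21 in CMP (adjusted p = 0.311), or folds of 1.32 and 1.55. Ccng1, cyclin G1, a target that brings a phosphatase to Mdm2, read 803 and 910.0 in G4/G5 GMP against 656 and 599 in G0 GMP, while its CMP signals were 1164 and 979 in G4/G5 against 889 and 771 in G0. It was higher in all 4 G4/G5 pools, by 0.44 ± 0.14 in GMP (adjusted p = 0.595) and 0.36 ± 0.14 in CMP (adjusted p = 0.346), and its other 2 probe sets above the minimum gave 0.28 and 0.30 in GMP and 0.47 and 0.52 in CMP.

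Tob1, an antiproliferative protein that links messenger RNAs to deadenylation, read 121 and 143 in G4/G5 GMP against 82.8 and 83.9 in G0 GMP, while its CMP signals were 249 and 175 in G4/G5 against 181 and 189.7 in G0. The GMP pools were apart and the CMP pools overlapped, at 0.60 ± 0.19 in GMP (limma, adjusted p = 0.595) and 0.16 ± 0.19 in CMP. Gadd45a, which is induced by DNA damage and slows entry into mitosis, read 74.7 and 111 in G4/G5 GMP against 89.2 and 83.4 in G0 GMP, while its CMP signals were 195 and 141 in G4/G5 against 105 and 119 in G0. Here the CMP pools were apart and the GMP pools overlapped, at 0.07 ± 0.23 in GMP and 0.54 ± 0.23 in CMP (adjusted p = 0.366). Psrc1, a spindle protein, was higher in both cell types, with log2 differences of 0.31 ± 0.18 in GMP and 0.38 ± 0.18 in CMP, and Gtse1, a microtubule-binding protein of late cell cycle that restrains p53, gave -0.01 ± 0.31 and -0.45 ± 0.31. The polo-like kinases Plk2 and Plk3 were below the minimum, with highest signals of 5.07 and 14.5.

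Btg2, the antiproliferative relative of Tob1, read 88.8 and 112 in G4/G5 GMP against 76.3 and 122 in G0 GMP, while its CMP signals were 107 and 104 in G4/G5 against 89.5 and 425 in G0. A single array, G0 CMP pool 2, was several times above the other 7, and its partner pool read below both G4/G5 pools. The log2 difference in CMP, with that pool included, was -0.85 ± 0.56 (limma, adjusted p = 0.538). The same array was high for immediate early genes, which cells switch on within minutes of a stimulus or of handling: their summed signal was 2540 and 3658 in the G4/G5 CMP pools, against 2740 and 10787 in the G0 CMP pools. Egr1, a zinc finger factor of this class, read 58.4 and 83.6 in the G4/G5 CMP pools against 254 and 1920 in the G0 CMP pools. A second Btg2 probe set read 131 and 87.5 in G4/G5 CMP against 64.6 and 143 in G0 CMP. Btg2 is an immediate early gene as well as a p53 target, and the part of either in these values was not tested.

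**Figure D2:**
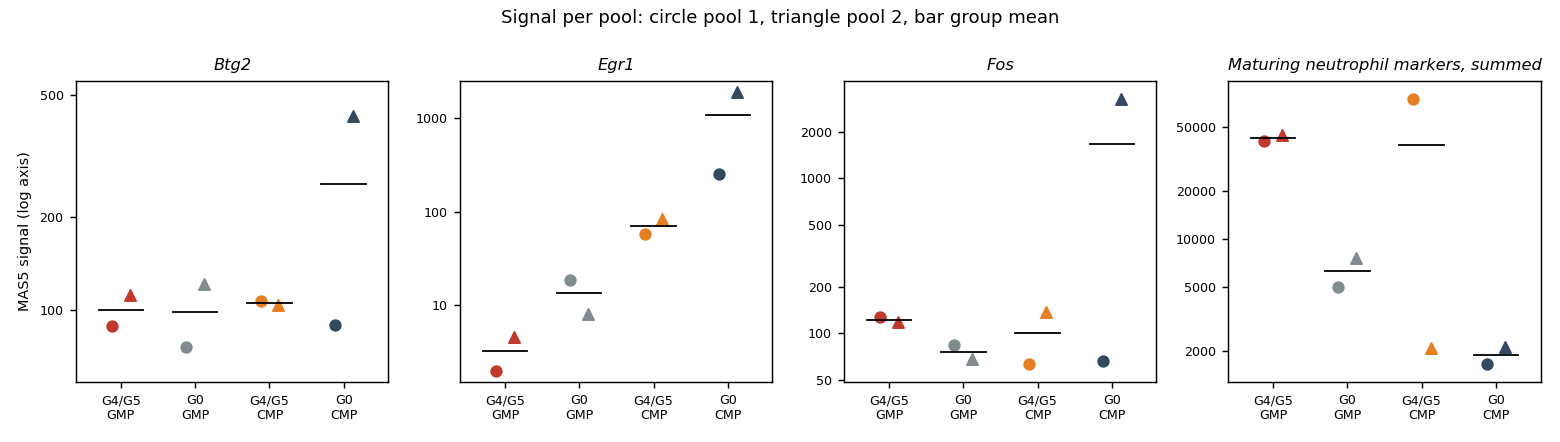
Signal on log axes of Btg2, Egr1 and Fos, and the summed signal of maturing neutrophil markers. Circles are pool 1, triangles pool 2 and bars the mean of the 2 pools. G0 CMP pool 2 is the highest point for Btg2, Egr1 and Fos (425, 1920 and 3266), and G4/G5 CMP pool 1 is far above its partner in the neutrophil panel (74950 and 2079).

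Among genes of apoptosis and autophagy the autophagy genes were higher in G4/G5 in both cell types, while Aen differed in sign between GMP and CMP. Dram1, a lysosomal membrane protein through which p53 induces autophagy, read 287 and 296 in G4/G5 GMP against 191 and 219 in G0 GMP, while its CMP signals were 164 and 69.1 in G4/G5 against 29.3 and 65.7 in G0. The GMP pools were well apart, and in CMP the lower G4/G5 pool lay just above the higher G0 pool. Its log2 difference was 0.49 ± 0.39 in GMP (limma, adjusted p = 0.742) and 1.10 ± 0.39 in CMP (adjusted p = 0.319), and in CMP it was 0.54 without G4/G5 CMP pool 1 and 1.67 without pool 2, where it passed (adjusted p = 0.0347) and 3.3% of all genes passed in the same direction. Ei24, a membrane protein of the endoplasmic reticulum needed for autophagy, read 349 and 349.6 in G4/G5 GMP against 318 and 284 in G0 GMP, while its CMP signals were 432 and 385 in G4/G5 against 312 and 316 in G0. Its differences were small and steady, 0.21 ± 0.13 in GMP (adjusted p = 0.692) and 0.37 ± 0.13 in CMP (adjusted p = 0.321).

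Aen, a nuclease that cuts DNA and RNA during apoptosis, read 168 and 155 in G4/G5 GMP against 193 and 178 in G0 GMP, while its CMP signals were 179.6 and 202 in G4/G5 against 155 and 117 in G0. Both G4/G5 pools lay below G0 in GMP and above it in CMP. The log2 difference was -0.19 ± 0.17 in GMP (limma, adjusted p = 0.779) and 0.47 ± 0.17 in CMP (adjusted p = 0.321), and the difference between these, -0.66 ± 0.24, had an unadjusted p of 0.0262 and an adjusted p of 0.994. Aen was the one gene of the 23 with an unadjusted p under 0.05 in that comparison. Of all genes, 2.46% were lower at that level and 3.97% reached it either way. With no signal minimum, Aen and Phlda3 were lower there, 2 of 30, against 2.47% of all 18193 genes, or 4.42% either way. Its second probe set gave -0.45 in GMP and -0.05 in CMP, so the higher value in CMP was not seen on it. Apaf1, the scaffold of the apoptosome, had log2 differences of 0.25 ± 0.14 in GMP and -0.02 ± 0.14 in CMP, and Perp, a membrane protein of p53-dependent apoptosis, 0.44 ± 0.38 and 0.07 ± 0.38. The death receptors Fas, Tnfrsf10b and Eda2r stayed below the minimum on all arrays, with highest signals of 17.6, 9.86 and 17.3.

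All 5 genes of DNA repair and nucleotide supply had log2 differences above 0 in both cell types, as had 50.9% of all genes tested in GMP and 55.6% in CMP. Their medians were 0.39 in GMP and 0.18 in CMP, beside 0.01 and 0.04 over all genes tested. Without G4/G5 CMP pool 1 the CMP values of Ercc5 (-0.02) and Rrm2b (-0.05) were below 0, while Ddb2, Polk and Xpc stayed above. A second Rrm2b probe set gave 0.38 in GMP and -0.04 in CMP. Xpc, which recognises distorted DNA at the start of nucleotide excision repair, read 588 and 644 in G4/G5 GMP against 349 and 460.0 in G0 GMP, while its CMP signals were 472 and 416 in G4/G5 against 277 and 409 in G0. The GMP pools were well apart and the CMP pools narrowly so, at 0.61 ± 0.21 in GMP (limma, adjusted p = 0.595) and 0.39 ± 0.21 in CMP (adjusted p = 0.456). Ddb2, the partner of Xpc that finds ultraviolet lesions, read 118 and 112 in G4/G5 GMP against 74.4 and 78.5 in G0 GMP, while its CMP signals were 142 and 119 in G4/G5 against 118 and 109.5 in G0. Its difference was 0.53 ± 0.17 in GMP (adjusted p = 0.595) and 0.18 ± 0.17 in CMP, and a second probe set gave 0.45 and 0.03.

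Ercc5, the endonuclease that cuts beside the lesion in the same pathway, read 86.3 and 73.2 in G4/G5 GMP against 59.7 and 56.9 in G0 GMP, while its CMP signals were 106 and 89.7 in G4/G5 against 86.8 and 95.7 in G0. It was apart in GMP (0.39 ± 0.19, limma, adjusted p = 0.633) and overlapped in CMP (0.09 ± 0.19). Polk, a polymerase that copies past damaged bases, gave 0.37 ± 0.19 in GMP and 0.24 ± 0.19 in CMP, and Rrm2b, the p53-induced subunit of ribonucleotide reductase that supplies nucleotides for repair, gave 0.27 ± 0.17 and 0.01 ± 0.17.

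The sestrins are stress proteins that restrain mTORC1 signalling, and Sesn1, the one above the minimum, had log2 differences just below 0. It read 266 and 267 in G4/G5 GMP against 274 and 313 in G0 GMP, while its CMP signals were 538 and 597 in G4/G5 against 490.1 and 707 in G0. Both G4/G5 GMP pools lay below the G0 pools by a narrow gap, and the CMP pools overlapped, at -0.13 ± 0.18 in GMP (limma, adjusted p = 0.862) and -0.05 ± 0.18 in CMP (adjusted p = 0.918). Its 2 further probe sets above the minimum were below 0 in both cell types. Sesn2 stayed between 10.4 and 32.1, below the minimum, with log2 differences of 0.28 in GMP and 0.14 in CMP, and a second, dimmer probe set gave -0.04 in GMP and 1.75 in CMP.

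**Figure D3:**
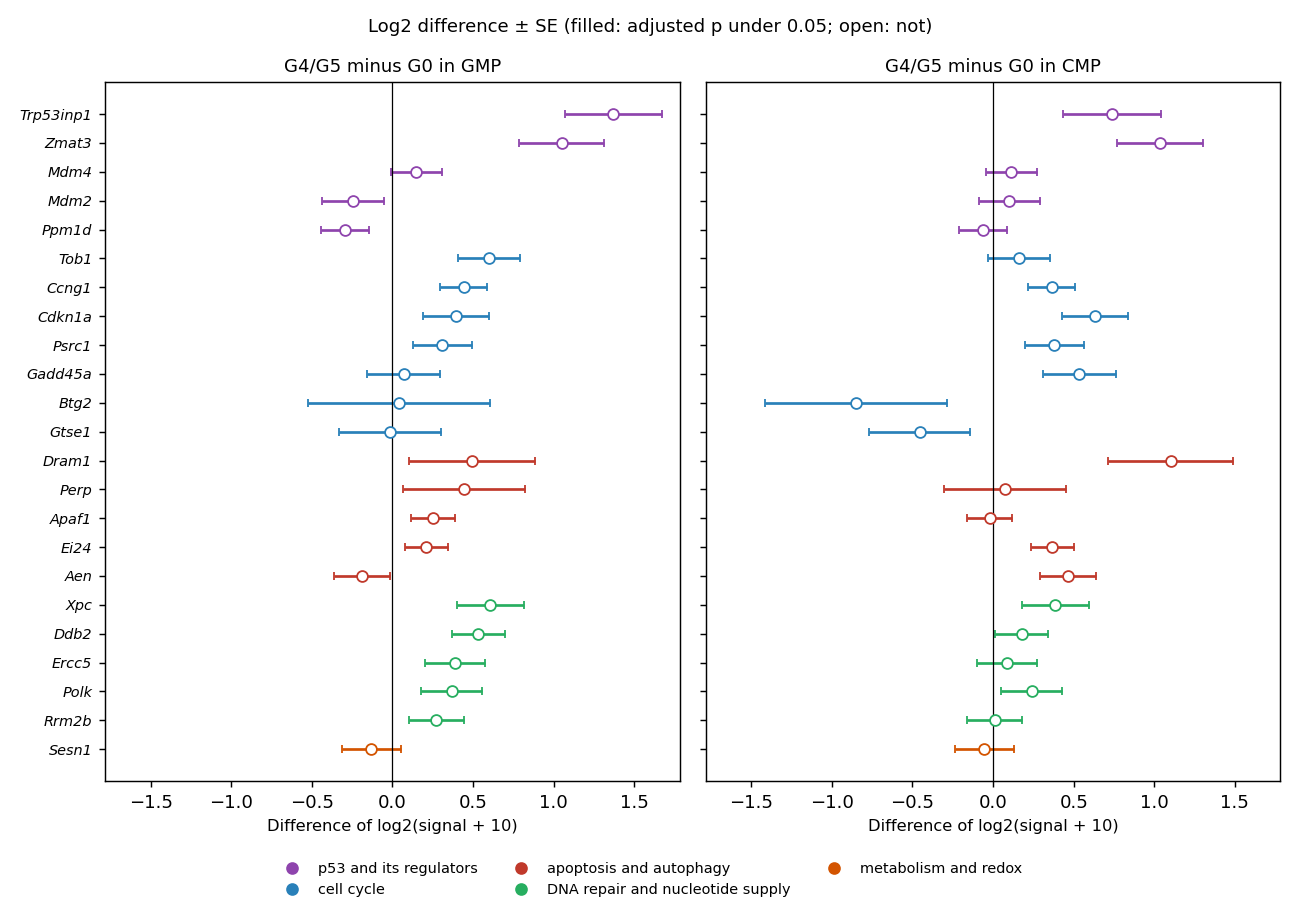
Log2 difference of signal plus 10, G4/G5 minus G0, of the 23 tested genes in GMP (left) and CMP (right), with standard errors as bars and colours by role. All points are open, since 0 of 23 passed an adjusted p of 0.05. Trp53inp1 (1.37) and Zmat3 (1.05) lie farthest right in GMP, Dram1 (1.10) and Zmat3 (1.04) in CMP, and Btg2 (-0.85) farthest left in CMP with the longest bar.

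Of the 23 tested genes, 10 had other probe sets above the minimum, 12 in all. Their log2 difference had the sign of the probe set used in 10 of 12 cases in GMP and 8 of 12 in CMP. The signs disagreed for Btg2 and Psrc1 in GMP, and for Aen, Btg2, Mdm2 and Rrm2b in CMP. Cdkn1a had a second probe set with differences of 0.04 in GMP and 1.36 in CMP, the same signs with different sizes. For Psrc1 the second probe set gave -0.36 in GMP and 1.10 in CMP, so its higher reading in GMP was seen on 1 of 2 probe sets.

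The comparisons of GMP with CMP were those in which listed genes passed the threshold. In G0, 1 of 23 genes rose in GMP relative to CMP (background 10.6%) and 3 of 23 fell (background 10.2%), and in G4/G5, 0 of 23 rose (background 4.18%) and 2 of 23 fell (background 6.29%). These shares are near or below the background. Trp53inp1 fell in GMP by 1.82 on the log2 scale in G0 (-1.82 ± 0.30, limma, adjusted p = 0.00792) and by 1.19 in G4/G5 (-1.19 ± 0.30, adjusted p = 0.0430). By the signals given above, both GMP pools of each genotype were below both CMP pools. Sesn1 fell by 1.06 in G4/G5 (-1.06 ± 0.18, adjusted p = 0.0131) and by 0.99 in G0 (-0.99 ± 0.18, adjusted p = 0.0107), again with no overlap.

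Tob1 fell by 1.06 in G0 GMP relative to G0 CMP (-1.06 ± 0.19, limma, adjusted p = 0.00972), and in G4/G5 its difference was -0.63 ± 0.19 (adjusted p = 0.0721). Dram1 rose by 1.97 ± 0.39 in G0 (adjusted p = 0.0128), and in G4/G5 its difference was 1.36 ± 0.39 (adjusted p = 0.0596). The difference between the genotypes in these cell type effects is the comparison in which no gene passed, so neither gene was shown to part CMP from GMP differently in the 2 genotypes. In G0 the summed neutrophil markers, like Dram1, were higher in both GMP pools (5028 and 7574) than in both CMP pools (1662 and 2116), while in G4/G5 the GMP sums (41034 and 44986) lay between the CMP sums (74950 and 2079). The part of those transcripts in the value of Dram1 was not tested. The calls depended on the GMP arrays: in G0 they numbered 0 of 23 without G0 GMP pool 1 (0.754% of all genes called) and 1 (Trp53inp1) without G0 GMP pool 2 (4.9%), and in G4/G5 they numbered 0 without G4/G5 GMP pool 1 (0.731%) or pool 2 (1.18%). The G0 calls numbered 7 when G0 CMP pool 1 was left out (18.2%), and 8 when G4/G5 CMP pool 1 (28.7%) or pool 2 (28.5%) was. The G4/G5 difference of Trp53inp1 was -0.90 without G4/G5 CMP pool 1, the pool with the neutrophil transcripts, and it did not pass there.

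Most of the listed p53 targets read lower in GMP than in CMP in both genotypes. The median log2 difference over the 30 genes was -0.24 in G4/G5 and -0.22 in G0, beside -0.06 and -0.04 over all 18193 genes. In G4/G5, both GMP pools lay below both CMP pools for 16 of 30 genes (background 29.1%) and above for 4 (background 20.3%), and in G0 for 12 (background 28.0%) and 7 (background 23.3%). All 5 tested regulators of p53 were below 0 in both genotypes, where 46.3% of all genes tested were above 0 in G4/G5 and 48.7% in G0. The genes of apoptosis and autophagy went the other way. Of 5 tested, 3 were above 0 in each genotype, with medians of 0.21 in G4/G5 and 0.16 in G0. The 2 cell type comparisons and the 2 genotype comparisons use the same 8 arrays, so these values are not independent of those above.

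**Figure D4:**
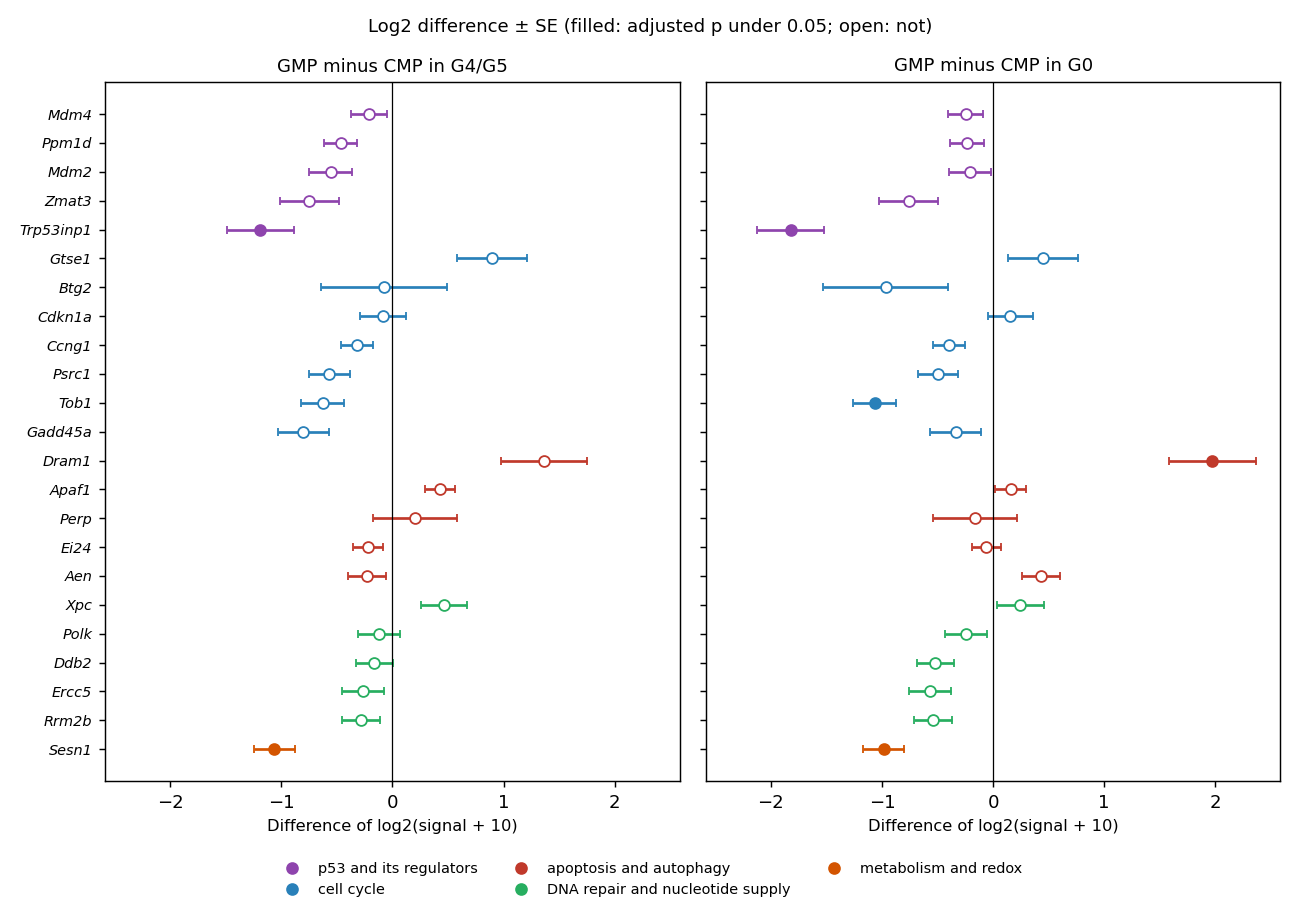
Log2 difference of signal plus 10, GMP minus CMP, of the 23 tested genes in G4/G5 (left) and G0 (right), with standard errors as bars and colours by role. Filled points passed an adjusted p of 0.05: Trp53inp1 and Sesn1 in both genotypes, and Tob1 and Dram1 in G0. Dram1 lies farthest right in both panels (1.36 and 1.97).

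The rest of the p53 pathway gave a mixed picture, and 0 genes of the 6 further lists passed between genotypes in either cell type (limma). One list held 8 genes upstream of p53, all of them kinases except Wrap53. Of these, 4 were above 0 in GMP and 3 in CMP, and 0 and 1 had an unadjusted p under 0.05. Over all genes tested that level was reached by 7.87% in GMP and 13.4% in CMP, the background for each list here. Chek1, the checkpoint kinase of replication stress, had log2 differences of -0.28 ± 0.27 in GMP and -0.54 ± 0.27 in CMP, and Hipk2, which phosphorylates p53 in the apoptotic response, 0.00 ± 0.19 and -0.47 ± 0.19. Of 19 cofactors, modifiers and genes of the ARF and ribosomal protein axis, 9 were above 0 in GMP and 10 in CMP, with 0 and 3 at an unadjusted p under 0.05. Rpl11, a ribosomal protein that can bind and block Mdm2, gave 0.08 ± 0.12 in GMP and 0.40 ± 0.12 in CMP, and Ep300, an acetyltransferase that acts with p53, 0.27 ± 0.16 and 0.26 ± 0.16.

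Of 5 other apoptotic targets, 2 were above 0 in GMP and 4 in CMP, with 0 and 1 at an unadjusted p under 0.05. Casp8ap2, a protein of the death receptor pathway, gave -0.14 ± 0.21 in GMP and -0.65 ± 0.21 in CMP, and Bid, which carries the death signal to mitochondria, 0.25 ± 0.29 in both. Of 20 other targets of metabolism, arrest and signalling, 10 were above 0 in GMP and 14 in CMP, with 1 and 7 at an unadjusted p under 0.05. Ddit4, an inhibitor of mTORC1, read 60.1 and 39.8 in G4/G5 GMP against 11.6 and 37.8 in G0 GMP, while its CMP signals were 249 and 109.8 in G4/G5 against 76.3 and 52.4 in G0. Both G4/G5 pools were higher in each cell type, by 1.07 ± 0.33 in the mean (limma, adjusted p = 0.206). Cd82, a tetraspanin that suppresses metastasis, was likewise higher in all 4 G4/G5 pools, by 0.60 ± 0.18 in the mean (adjusted p = 0.206).

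The cell cycle genes that p53 represses through p21 and the DREAM complex mostly read lower in G4/G5 GMP. Of 25 tested, 2 were above 0 in GMP, where 50.9% of all genes were, with a median of -0.24, and 15 in CMP, where 55.6% were, with a median of 0.04. An unadjusted p under 0.05 was reached by 7 of 25 in GMP (background 7.87%) and 2 of 25 in CMP (background 13.4%). Top2a, the topoisomerase of dividing cells, read 1600 and 1547 in G4/G5 GMP against 2112 and 2048 in G0 GMP, while its CMP signals were 1324 and 1810 in G4/G5 against 1905 and 1797 in G0. It was lower in both G4/G5 GMP pools and overlapped in CMP, and the mean difference was -0.33 ± 0.11 (limma, adjusted p = 0.211). Mcm5, a subunit of the replicative helicase, gave -0.24 ± 0.16 in GMP and -0.42 ± 0.16 in CMP. In the same GMP pools the neutrophil markers were higher in G4/G5, and their part in the lower reading of dividing-cell genes was not tested. Of 12 immediate early genes, 8 were above 0 in GMP and 3 in CMP, with 1 at an unadjusted p under 0.05 in each. Egr1 gave -0.79 ± 0.76 in GMP and, on the arrays described beside Btg2, -3.16 ± 0.76 in CMP (limma, adjusted p = 0.239). Klf6, a zinc finger factor of this class, gave 0.87 ± 0.32 in GMP and 0.28 ± 0.32 in CMP.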

How the data were processed

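The authors extracted RNA with Trizol, amplified it with a 3′ in vitro transcription kit and hybridised it to an Affymetrix mouse array, per the series text. The deposited intensity values were linear MAS5 signals (per the submitters' processing notes), scaled by the authors to a target of 100 on each array. Detection calls and a genome build are not given. Control probe sets and those with several symbols or none were left out.

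From these, log2(signal + 10) was fitted in limma 3.58.1 (R 4.3.3) with 1 mean per group over 8 arrays, 4 residual degrees of freedom, an intensity trend, and Benjamini-Hochberg adjustment over the 8886 genes with a signal of 50 or more on at least 2 arrays. A tested gene was read from its brightest probe set among those reaching that minimum. Differences on this scale understate the change of low genes. Further tables were made in Python 3.11.15. The fit was tested on simulated data. Signals on every array are given for genes that passed in any of 6 comparisons, for the 8 smallest unadjusted p-values in each genotype comparison, and for Mdm2 and Cdkn1a. From each other pathway list the 2 genes with the smallest unadjusted p in the mean genotype effect are named. The genes, lists and tests were chosen with earlier results of these data known.

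The series text calls same-numbered G4/G5 and G0 pools of a cell type paired by age and sex. Their deviations from the group means correlated at 0.139 in GMP and 0.247 in CMP across genes. The sources used here do not say whether same-numbered GMP and CMP pools share mice, which would leave fewer independent units. The alternatives were another pseudocount, no signal minimum or one of 100, quantile normalization, median centring, other choices of probe set, the pool number as a block, fits on 4 arrays, and each array left out.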

Additional observations from a re-analysis of the deposited data

Results flagged for a closer look

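For Aen, the apoptosis-enhancing nuclease, the genotype difference in GMP parted from that in CMP. It was the one of the 23 tested genes with an unadjusted p under 0.05 in that comparison. Of all genes, 2.46% reached that level in the same direction and 3.97% either way, so 1 of 23 is near the share over all genes. With no signal minimum it was 2 of 30 genes, Aen and Phlda3, where 2.47% of all genes did in the same direction and 4.42% either way. The difference of the 2 log2 differences was -0.66 ± 0.24 (SE), with an unadjusted p of 0.0262 and an adjusted p of 0.994 (limma), so it did not pass the correction. On the probe set used, both G4/G5 pools lay below both G0 pools in GMP and above both in CMP. A second probe set gave log2 differences of -0.45 in GMP and -0.05 in CMP, so the opposite signs were not seen on it.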

How the results depend on the processing

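The number of listed genes called between genotypes was 0 under most alternatives. It was 3 in GMP with the 4 GMP arrays fitted alone (4.05% of all genes called), 0 to 2 in CMP and 0 to 5 in the mean with each array left out, the highest without G4/G5 CMP pool 2 in both (4.78% and 7.52% of all genes), and it stayed at 0 in GMP with any array left out. The median difference in GMP (0.31) was 0.23 with no signal minimum, 0.26 with a minimum of 100, 0.27 after quantile normalization, 0.28 after median centring, 0.34 without probe sets of the _x_at and _s_at kind and 0.25 with the mean of a gene's probe sets. With each array left out it ran from 0.25 to 0.35 in GMP, 0.056 to 0.38 in CMP and 0.19 to 0.34 in the mean. The count of non-overlapping genes in CMP (12, all higher, beside 36.5% of all genes either way) ran from 14 to 19 with each CMP array left out. Over all genes it ran from 63.1% to 71.1%, and these alternatives were added after seeing the data. Of the listed genes, 12 to 17 were then higher, beside 35.0% to 41.8% of all genes. Leaving out an array can only keep or raise such a count, so this is no check of it. For GMP against CMP, the calls in G4/G5 (2) numbered 1 with no minimum and 0 to 4 with each array left out, and the calls in G0 (4) ran from 0 to 8. With no minimum, 2.7% of all genes were called in G4/G5, against 10.5% with it. With arrays left out the share of all genes called moved as well, so these counts do not set the list apart. The median in G0 was -0.29 with a minimum of 100 and ran from -0.33 to -0.18 with each array left out. Mdm2 in CMP (0.10) turned to -0.03 without G0 CMP pool 2 and to -0.11 without G4/G5 CMP pool 1. The causes were not tested. Where a group was left with 1 array, that array is assumed to vary like the others.

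With the replicate block, 0 listed genes passed between genotypes, and the lowest adjusted p was 0.451 in GMP, 0.185 in CMP and 0.132 in the mean with the block within cell type. Across cell types the numbers are not stated to mark the same mice, and deviations correlated at 0.0343 in G4/G5 and 0.217 in G0. With the block, GMP against CMP called 4 genes in G0. Of all genes, 21.3% were called there with the block within genotype and 23.6% with it shared by all arrays. In G4/G5, GMP against CMP called 3 with either block. Dram1 (limma, adjusted p = 0.0393) was added with the block within genotype, where 5.09% of all genes rose and 6.88% fell. Mdm2 (adjusted p = 0.0467) was added with the block shared by all arrays, where 5.81% rose and 7.98% fell. The block changed no other call. Signals near the minimum, of Zmat3, Perp and Gtse1 above all, limit what 2 pools a group can show.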

Other observations

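The following values were chosen after they were seen, and none was tested. A second, dimmer probe set of Sesn2, a sestrin, read 37.4 and 41.4 in G4/G5 CMP against 4.41 and 5.05 in G0 CMP, with 7.80 and 8.75 in G4/G5 GMP against 9.42 and 8.06 in G0 GMP. The brighter probe set of the gene read 19.3 and 32.1 in G4/G5 CMP against 18.0 and 26.2 in G0 CMP, so the 2 probe sets disagree. Phlda3, the Akt repressor, read 47.5 and 82.2 in G4/G5 CMP against 29.6 and 33.9 in G0 CMP, and 16.6 and 30.1 in G4/G5 GMP against 35.3 and 26.5 in G0 GMP. It reached a signal of 50 on 1 of the 8 arrays.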
